A study of Neurospora crassa with 54 samples.

Results

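The non-additive effect of deleting both hH2Az and set-7 was measured in mycelium of Neurospora crassa, a filamentous fungus, over the 12 RNA-seq libraries of a series of 54 samples; the other 42 are chromatin samples and were not analysed here. The libraries form a design of 4 strains with 3 libraries each: Wild type, ∆hH2Az, ∆set-7 and ∆hH2Az;∆set-7. Cultures of all 4 strains spent 12 h under constant light at 30 °C in VMM, a minimal medium, to which 2% glucose was added; the libraries were stranded and made from poly(A) RNA. The labels give 1 strain code per genotype, so the genotype and the isolate cannot be told apart, and they do not say whether replicates were separate cultures, so p-values measure the spread between these libraries. The interaction of a gene is its log2 level in ∆hH2Az;∆set-7 minus that in ∆hH2Az minus that in ∆set-7 plus that in Wild type. It is 0 when the fold changes of the single deletions multiply in the double deletion, above 0 when the double deletion lies higher than that product and below 0 when it lies lower. The table of read counts holds 10398 genes, of which 8372 passed the filter on low counts and were tested and 2026 were not.

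H2A.Z, the product of hH2Az, is a variant of histone H2A that replaces it in some nucleosomes, often those beside transcription start sites. SET-7 is the catalytic subunit of the Polycomb repressive complex PRC2, which places the repressive methyl mark on lysine 27 of histone H3. In Neurospora this mark covers broad regions near the chromosome ends and further domains within the chromosomes, and many genes under it are nearly silent in mycelium. A strain lacking both genes shows whether the effect of losing one depends on the presence of the other.

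The libraries held 13581416 to 19720473 counted reads, and no 2 libraries of a strain agreed within sampling noise. Every library labelled ∆hH2Az or ∆hH2Az;∆set-7 had less hH2Az than every other library, with 16.7 to 37.8 CPM (counts scaled to library size) against 65.6 to 105.4. Every library labelled ∆set-7 or ∆hH2Az;∆set-7 had less set-7, with 2.71 to 5.16 CPM against 7.85 to 12.5. Reads remained for both genes in the strains lacking them; how far each deletion reaches was not known here. The genes listed for vegetative hyphae summed to 9180 to 20900 CPM per library. Those listed for conidia and aerial hyphae summed to 483 to 1880 CPM and those for sexual development to 172 to 582 CPM. Most of the vegetative sum was 1 gene, tef-1, with 7243 to 16580 CPM per library. In Wild type, hex-1 and act of that list had means of 1570 and 1600 CPM, but so and chs-1 of 61.2 and 139 CPM. The sums thus depend on the genes listed and do not measure the stage of the cultures.

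Replicate 3 of each strain stood apart from the other replicates. The library names in the labels carry a tag of unstated meaning: it reads 920 in replicates 1 and 2, and replicate 3 has a different one. Across 8372 genes, the replicate 3 library of ∆hH2Az correlated at r = 0.941 and 0.947 with its own strain's libraries tagged 920 but at 0.955 and 0.958 with those of ∆hH2Az;∆set-7. The replicate 3 library of ∆hH2Az;∆set-7 correlated at 0.934 and 0.936 with its own strain's and at 0.940 and 0.950 with those of ∆hH2Az. The difference of ∆hH2Az;∆set-7 from ∆hH2Az was at least 2 on the log2(CPM + 0.5) scale in the 920 libraries for 272 genes, and 194 of these (71.3%) had the opposite sign in the replicate 3 libraries. The set-7 levels of both libraries fell on the side their labels give, at 12.5 CPM in ∆hH2Az and 3.13 CPM in ∆hH2Az;∆set-7. Both strains lack hH2Az, so a low hH2Az level cannot tell these libraries apart. Replicates 1, 2 and 3 had 16.7, 17.9 and 32.5 CPM of hH2Az in ∆hH2Az and 37.8, 35.2 and 23.1 CPM in ∆hH2Az;∆set-7. The cause was not tested. The interaction is therefore given over all 12 libraries and within each tag; the replicate 3 libraries are 1 per strain and allow no test of their own.

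Few genes departed measurably from additivity over the 12 libraries. The interaction had an adjusted p under 0.05 in edgeR's quasi-likelihood test, the threshold for a call, for 15 of 8372 genes (0.179%), 7 above 0 (0.0836%) and 8 below 0 (0.0956%). The deletion of hH2Az moved many more genes: 2604 genes (31.1%) were called in ∆hH2Az against Wild type and 86 (1.03%) in ∆set-7 against Wild type. The interaction lay within 0.5 of 0 on the log2 scale for 5780 genes (69%) and at least 1 away for 857 (10.2%). Its median was 0.01, with 5% of genes below -1.22 and 5% above 0.80. Single libraries decided the count of calls, which was 5 without Wild type replicate 2, 116 without ∆hH2Az replicate 3 and 106 without ∆hH2Az;∆set-7 replicate 3. An unadjusted p under 0.05 was reached by 516 genes (6.16%). The precision was lower than for a pairwise contrast, with a median standard error of 0.422 against 0.299 for ∆hH2Az minus Wild type, so an interaction of a small size was not detectable at this spread. In bulk RNA, fewer cells of a type and less RNA per cell cannot be told apart.

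The called genes above 0 and those below 0 lay at different distances from the chromosome ends. All 7 genes above 0 lay 1.6 to 12.9 kb from a chromosome end, at the left end of chromosome II and at both ends of chromosome VII. All 8 genes below 0 lay 270.1 to 2303 kb from an end, 4 on chromosome III, 3 on chromosome V and 1 on chromosome VI; 92.6% of all genes tested lie over 200 kb from an end, so this is near the background and no result about the 8. Larger sets of calls did not separate so. Of all genes tested, 0.991% (83 of 8372) lie within 25 kb of an end. Within 25 kb of an end lay 10 of 21 calls above 0 with the DESeq2 Wald test, 9 of 24 without replicate 3 of ∆hH2Az, 9 of 24 without replicate 3 of ∆hH2Az;∆set-7 and 24 of 1031 in the 920 libraries alone, where 16 genes within 25 kb were called below 0. Coordinates are those of the NC12 assembly, and a right end is the end of the last annotated gene. The files name 1 of the 15 with a symbol, ccg-1; no role is given here for the other 14.

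**Figure D1:**
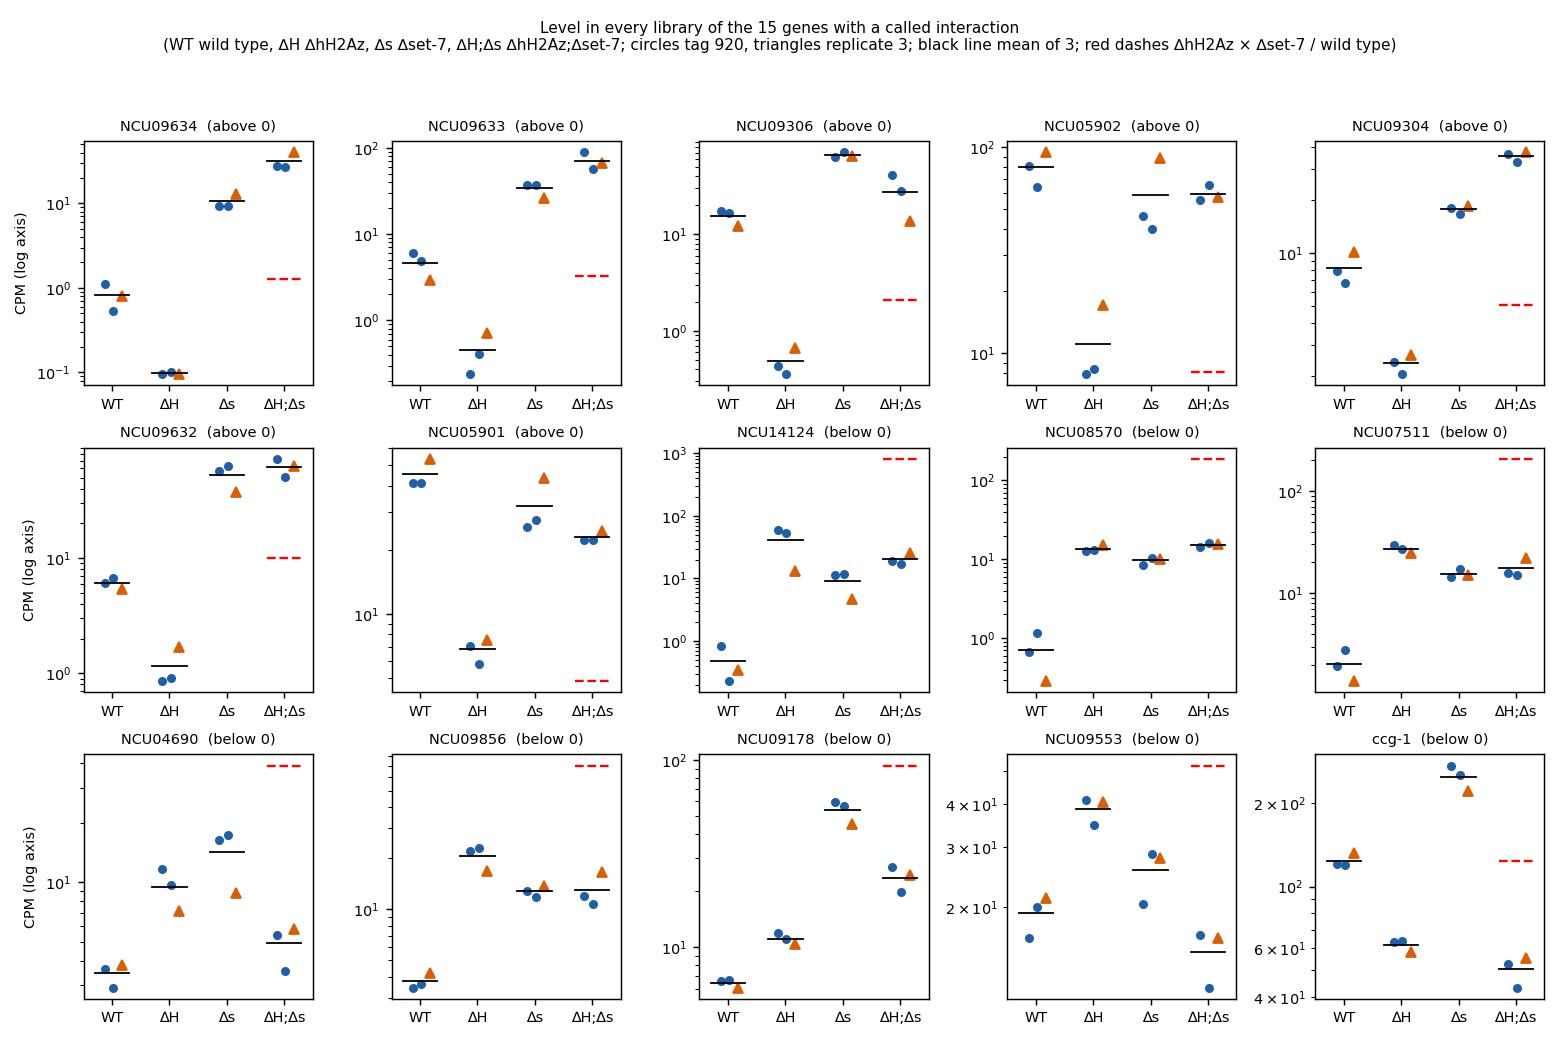
Level (CPM, log axis) of the 15 called genes in every library, with strains on the x axis; circles are replicates 1 and 2 (tag 920), triangles are replicate 3, black lines are means of 3 libraries and red dashes are the ∆hH2Az mean times the ∆set-7 mean divided by the Wild type mean. In the 7 genes above 0 every double-deletion library lies above the dashes, and in the 8 genes below 0 every one lies below them.

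The 3 genes on the left of chromosome II are neighbours between positions 8927 and 13311. NCU09634, on the minus strand from 8927 to 11029, had 1.10, 0.539 and 0.808 CPM in the Wild type libraries, 0.0956, 0.102 and 0.0959 in ∆hH2Az, 9.42, 9.36 and 12.9 in ∆set-7 and 27.8, 26.96 and 40.6 in ∆hH2Az;∆set-7. The 4 strains did not overlap: ∆hH2Az, with 6 reads over its 3 libraries, was the lowest and the double deletion the highest. The product of the single effects would put the double deletion at 1.27 CPM; its mean was 31.8 CPM, 25.0 times that. The interaction was 4.54 (standard error 0.545, adjusted p 0.00263 by edgeR).

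NCU09633, on the plus strand from 11642 to 12594, had 6.07, 4.93 and 2.95 CPM in Wild type, 0.239, 0.408 and 0.720 in ∆hH2Az, 37.6, 37.4 and 26.4 in ∆set-7 and 89.6, 56.6 and 67.0 in ∆hH2Az;∆set-7. The order of the strains was that of NCU09634, again with no overlap. Its interaction was 4.39 (standard error 0.518, adjusted p 0.00450 by edgeR). NCU09632, from 12521 to 13311 on the minus strand, overlaps NCU09633 by position. The counting used no strand, so reads of the pair may be wrongly divided. It had 5.37 to 6.78 CPM in Wild type, 0.860 to 1.68 in ∆hH2Az, 37.6 to 63.6 in ∆set-7 and 50.8 to 72.8 in ∆hH2Az;∆set-7, where the last 2 strains overlapped. Its interaction was 2.62 (standard error 0.404, adjusted p 0.0248 by edgeR). The next gene inward, NCU09631, had an interaction of 0.29 (standard error 0.492, adjusted p 0.955 by edgeR).

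At the left end of chromosome VII, NCU09306 and NCU09304 were called. NCU09304, from 6964 to 8885, had 7.93, 6.70 and 10.1 CPM in Wild type, 2.39, 2.04 and 2.64 in ∆hH2Az, 17.96, 16.5 and 18.5 in ∆set-7 and 36.3, 33.1 and 37.5 in ∆hH2Az;∆set-7. No strain overlapped another, and the order was the same as on chromosome II. The double deletion was expected at 5.06 CPM from the single effects and had a mean of 35.6 CPM. Its interaction was 2.81 (standard error 0.287, adjusted p 0.00230 by edgeR).

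NCU09306, from 950 to 2274, had 17.4, 16.8 and 12.3 CPM in Wild type, 0.430, 0.357 and 0.672 in ∆hH2Az, 63.7, 71.1 and 64.2 in ∆set-7 and 40.6, 27.9 and 13.61 in ∆hH2Az;∆set-7. Here ∆set-7 was the highest strain, and the double deletion overlapped Wild type through its replicate 3. The interaction was 3.69 (standard error 0.525, adjusted p 0.0143 by edgeR), and its sign depends on the scale. In CPM rather than log2, the double deletion minus each single deletion plus Wild type was -23.9 CPM (SE 8.32). The genes between them, NCU11424 and NCU09305, had interactions of 0.04 (standard error 0.357, adjusted p 1.0 by edgeR) and 0.80 (standard error 0.435, adjusted p 0.865 by edgeR).

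The pair at the right end of chromosome VII had a different course. NCU05902, from 4228922 to 4233718, had 80.9, 64.3 and 94.9 CPM in Wild type, 7.93, 8.37 and 17.1 in ∆hH2Az, 46.7, 40.3 and 88.95 in ∆set-7 and 55.8, 65.6 and 57.2 in ∆hH2Az;∆set-7. The ∆hH2Az libraries were below all others, and the other strains overlapped one another. Its interaction was 2.86 (standard error 0.487, adjusted p 0.04998 by edgeR). NCU05901, from 4221114 to 4228321, had 41.1 to 53.6 CPM in Wild type, 5.82 to 7.53 in ∆hH2Az, 25.7 to 43.4 in ∆set-7 and 22.2 to 24.5 in ∆hH2Az;∆set-7. Its interaction was 2.25 (standard error 0.324, adjusted p 0.0168 by edgeR), and it overlaps NCU05900 by position. For neither gene did ∆set-7 differ from Wild type by the test, with log2 changes of -0.45 (edgeR adjusted p 0.894) and -0.49 (edgeR adjusted p 0.666).

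In all 7 genes every ∆hH2Az library lay below every Wild type library and below every double-deletion library. Against Wild type they fell in ∆hH2Az by between 1.80 and 4.97 on the log2 scale, and 7 of 7 were called (background 14.9%). Where set-7 was also deleted, the loss of hH2Az changed them by -1.27 to 1.59 on the log2 scale (∆hH2Az;∆set-7 minus ∆set-7). In that contrast 3 were called higher and 1 lower (backgrounds 14.7% and 15%), and 3 were not called. The loss of set-7 raised 7 of 7 where hH2Az was deleted, by 1.75 to 8.24 (background 1.12%). Where hH2Az was kept, 5 of 7 were called higher (background 1.02%). These contrasts use the libraries that the interaction itself uses, so they describe the called genes and add no support to the calls.

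Of the 8 genes below 0, 4 lay on chromosome III. NCU07511, from 4573918 to 4575576, had 1.94, 2.77 and 1.39 CPM in Wild type, 29.8, 26.9 and 24.5 in ∆hH2Az, 14.3, 17.2 and 15.2 in ∆set-7 and 15.9, 14.9 and 21.9 in ∆hH2Az;∆set-7. Each deletion raised it, and the double deletion overlapped ∆set-7 and stayed below ∆hH2Az. The product of the single effects was 207 CPM against an observed mean of 17.6 CPM. Its interaction was -3.56 (standard error 0.362, adjusted p 0.00230 by edgeR). Its neighbour NCU07510 had an interaction of -3.80 but a standard error of 0.991 and an edgeR adjusted p of 0.210, on 368 reads over the 12 libraries.

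NCU08570 and NCU14124 lie 2 genes apart on chromosome III. NCU08570, from 4873986 to 4874990, had 0.675, 1.16 and 0.289 CPM in Wild type, 12.8, 13.1 and 15.2 in ∆hH2Az, 8.54, 10.5 and 10.1 in ∆set-7 and 14.2, 16.2 and 15.5 in ∆hH2Az;∆set-7. All 3 mutant strains were far above Wild type, and the double deletion overlapped ∆hH2Az. Its interaction was -3.64 (standard error 0.468, adjusted p 0.00898 by edgeR). NCU14124, from 4870400 to 4871284, had 0.844, 0.231 and 0.346 CPM in Wild type, 59.9, 52.6 and 12.95 in ∆hH2Az, 11.4, 11.7 and 4.65 in ∆set-7 and 18.9, 17.1 and 25.7 in ∆hH2Az;∆set-7. Replicate 3 of ∆hH2Az lay below every double-deletion library, unlike replicates 1 and 2. The interaction of NCU14124 was -5.33 (standard error 0.864, adjusted p 0.0346 by edgeR). The genes around this pair, NCU08572, NCU08571 and NCU08569, had interactions of -1.61, -2.19 and -2.26 and were not called, with edgeR adjusted p of 0.714, 0.671 and 0.490.

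NCU09178, also on chromosome III, from 269062 to 271142, had 6.06 to 6.70 CPM in Wild type, 10.4 to 11.95 in ∆hH2Az, 45.8 to 59.9 in ∆set-7 and 19.6 to 26.8 in ∆hH2Az;∆set-7. The strains did not overlap, and the double deletion lay between the single ones. Its interaction was -1.99 (standard error 0.266, adjusted p 0.0102 by edgeR).

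On chromosome V, ccg-1 (NCU03753, from 2302672 to 2303443), a clock-controlled gene that is also repressed by glucose, had 120.5, 119.9 and 131.8 CPM in Wild type, 63.3, 63.7 and 58.1 in ∆hH2Az, 273, 253 and 221 in ∆set-7 and 52.6, 43.2 and 55.2 in ∆hH2Az;∆set-7. Its set-7 effect was 1.00 (edgeR adjusted p 0.00780) with hH2Az and -0.29 (edgeR adjusted p 0.595) without, and the interaction, which tests that difference, was -1.30 (standard error 0.222, adjusted p 0.04998 by edgeR). The call lay at the threshold and was lost with DESeq2 size factors (edgeR adjusted p 0.0629), with no filter beyond 1 read (edgeR adjusted p 0.0586) and with limma-voom. It was the smallest called interaction in size.

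NCU09856, on chromosome V from 5971303 to 5974966, had 3.46 to 4.22 CPM in Wild type and 10.7 to 22.9 CPM in all the mutant libraries. Its interaction was -2.42 (standard error 0.318, adjusted p 0.00985 by edgeR). NCU09553, on the same chromosome from 4567334 to 4569163, had 16.2 to 21.3 CPM in Wild type, 34.7 to 41.3 in ∆hH2Az, 20.4 to 28.6 in ∆set-7 and 11.6 to 16.5 in ∆hH2Az;∆set-7. Its interaction was -1.81 (standard error 0.302, adjusted p 0.0439 by edgeR). NCU04690, on chromosome VI from 393877 to 394853, had 2.93 to 3.81 CPM in Wild type, 7.15 to 11.7 in ∆hH2Az, 8.80 to 17.4 in ∆set-7 and 3.54 to 5.77 in ∆hH2Az;∆set-7. Its interaction was -2.99 (standard error 0.444, adjusted p 0.0211 by edgeR). In NCU04690 and NCU09553 each single deletion had a higher mean than Wild type, while the double deletion did not differ from it by the test, with edgeR adjusted p of 0.263 and 0.205.

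Of the 8 genes below 0, 7 rose in ∆hH2Az and ccg-1 fell (backgrounds 16.2% and 14.9%). In ∆set-7, 7 rose (background 1.02%), the exception being NCU09553, at 0.42 (edgeR adjusted p 0.715). These contrasts use libraries that the interaction itself uses, so they describe the called genes and add no support to the calls. The observed mean of the double deletion was 0.0252 to 0.407 times the product of the single effects, against 4.75 to 25.0 times for the 7 genes above 0. All 8 kept the sign of their interaction in CPM without a log. Of the 15 calls, 5 held in all 12 fits that left out 1 library: NCU09634, NCU09633, NCU09304, NCU07511 and NCU08570. The call of NCU09856 was lost only without Wild type replicate 2 (edgeR adjusted p 0.0508), and the other 9 were each lost in 3 to 10 of the 12 fits. All 9 were lost without Wild type replicate 2 or ∆set-7 replicate 1 or 2, and 8 of them, all but NCU09178, also without ∆hH2Az replicate 1 or 2. The highest edgeR adjusted p over the 12 fits was 0.0573 for NCU09178, 0.0793 for NCU09306 and NCU05901, 0.0958 for NCU04690, 0.101 for NCU09632, 0.154 for NCU14124, 0.170 for NCU09553, 0.193 for NCU05902 and 0.214 for ccg-1. With limma-voom the calls of NCU09632, NCU14124, ccg-1 and NCU09306 were lost. Just past the threshold, at edgeR adjusted p between 0.0623 and 0.0787, lay NCU08055, NCU07454, pmg, NCU09494, NCU05156 and NCU05097, of which pmg (1.90) and NCU09494 (1.80) were above 0; NCU09494 lies 3.2 kb from an end of chromosome II.

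Near the chromosome ends the interaction was shifted above 0 beyond the called genes. Of 97 genes within 25 kb of an end, 83 were tested; the distance of 25 kb was chosen after the values were seen. Their median interaction was 0.58 and 57 of them (68.7%) were above 0, against a median of 0.01 and 51% of all genes tested. Over the 63 of them with a mean of at least 5 CPM the median was 0.31. The median was 0.44 for the 88 tested genes at 25 to 50 kb, 0.22 for 165 at 50 to 100 kb, 0.10 for 286 at 100 to 200 kb and 0.0002 for 7750 farther in. Within 25 kb the median was 0.30 in the 920 libraries and 0.89 in the replicate 3 libraries on the log2(CPM + 0.5) scale, against 0.0014 and -0.03 for all genes. Neighbouring genes share their chromatin and are not independent, so no test was made over them.

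**Figure D2:**
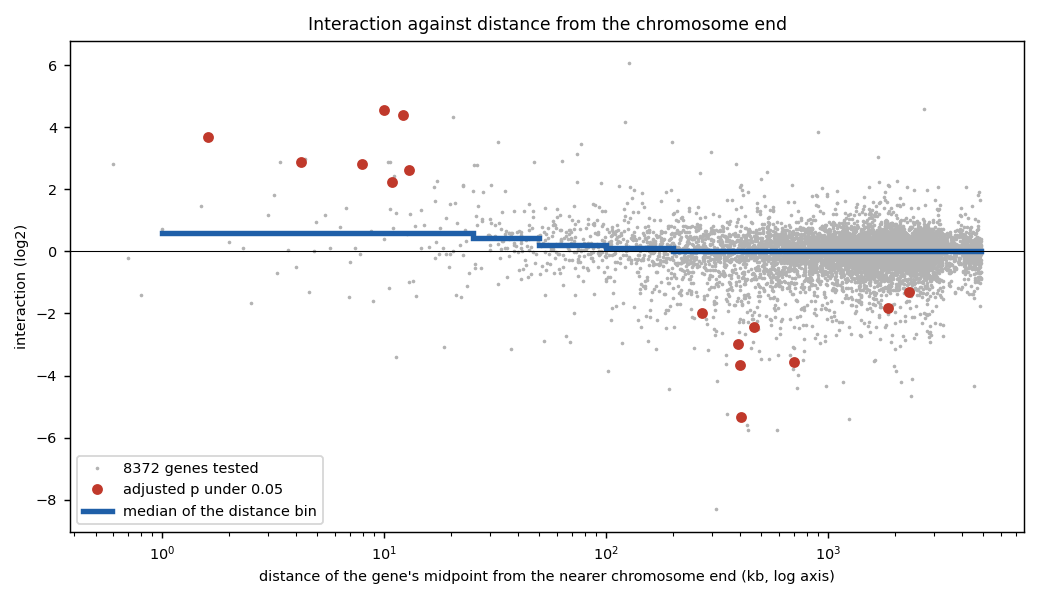
Interaction (log2) of the 8372 tested genes against the distance of the gene's midpoint from the nearer chromosome end (kb, log axis); red points are the 15 called genes and blue bars are the medians of 5 distance bins. The called genes above 0 lie within 12.9 kb of an end, those below 0 at 270.1 kb or farther, and the bin medians go from 0.58 within 25 kb (0.31 over its genes with a mean of at least 5 CPM) to 0.0002 beyond 200 kb.

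In these genes the median effect of hH2Az differed with and without set-7. Within 25 kb, deletion of hH2Az had a median effect of -0.63 where set-7 was kept, with 29 genes called lower and 12 called higher. Where set-7 was deleted the median was 0.15, with 13 called lower and 16 called higher. Over all genes the backgrounds for these counts were 14.9% lower and 16.2% higher with set-7, and 15% lower and 14.7% higher without it. Seen from the other side, deletion of set-7 had a median effect of 1.46 within 25 kb where hH2Az was kept (28 of 83 called higher, against 1.02% of all genes) and of 2.07 where it was deleted (35 of 83, against 1.12%). Within the tags, the median hH2Az effect within 25 kb was -0.49 with set-7 and -0.0069 without it in the 920 libraries, and -0.38 and 0.50 in the replicate 3 libraries.

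**Figure D3:**
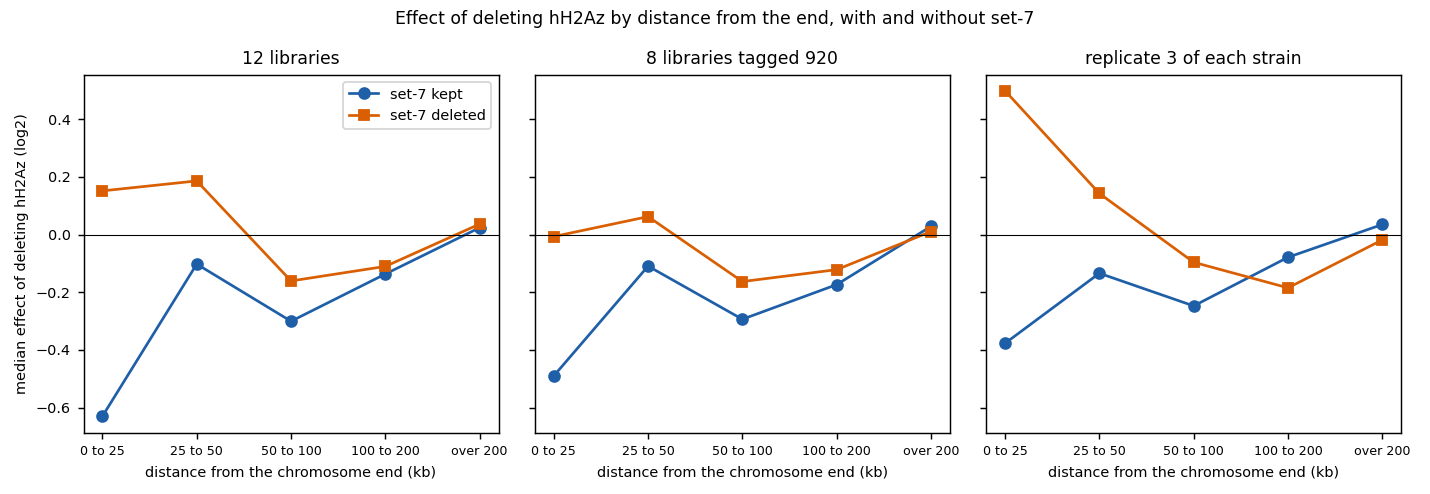
Median effect of deleting hH2Az (log2) in 5 bins of distance from the chromosome end (kb), where set-7 was kept (blue circles) and deleted (orange squares), for 12 libraries (edgeR) and within each tag (log2 of CPM + 0.5). In all 3 panels the orange median lies above the blue one within 100 kb of an end, and within 25 kb the blue medians are -0.63, -0.49 and -0.38.

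The ends were not alike. A positive median interaction within 25 kb was found at 11 of the 14 ends, and also at 11 of 14 within each tag. It was largest at the right end of chromosome VII (2.25 over 5 tested genes), the right end of III (1.61 over 7), and the left end of II (1.46 over 6). At the left end of VII all 8 tested genes were above 0, with a median of 0.66, and at the right end of II all 5, with 1.08. The right end of IV was the clearest exception, with a median of -1.48 and 1 of 7 genes above 0; its median was -1.87 in the 920 libraries but 0.89 in the replicate 3 libraries. The left end of IV disagreed between the tags most, with medians of -3.45 in the 920 libraries and 5.98 in the replicate 3 libraries over 6 genes. Of the genes within 25 kb whose ∆hH2Az;∆set-7 minus ∆hH2Az difference was at least 1 in size in the 920 libraries, 10 of 56 had the opposite sign in the replicate 3 libraries, against 750 of 1048 over all genes.

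The effects of each deletion with and without the other were also set side by side over the genes they moved. The contrasts paired here share no library. Of the 1357 genes risen in ∆hH2Az against Wild type, 1307 (96.3%) were also higher in ∆hH2Az;∆set-7 than in ∆set-7, with a median of 1.08 there against 1.37 in the contrast that chose them. Over all genes 51.7% were higher in ∆hH2Az;∆set-7 than in ∆set-7. Of the 1246 fallen genes, hH2Az aside, 1212 (97.3%) were also lower, against 48.3% of all genes, with medians of -1.17 and -1.31. A smaller median in the second contrast also follows from choosing genes on the first. Of the 85 genes risen in ∆set-7 against Wild type, 76 were also higher in ∆hH2Az;∆set-7 than in ∆hH2Az, 51 of them called, with medians of 2.28 and 2.92; over all genes 49.2% were higher there and 1.12% were called. Over the 479 genes that the 920 libraries alone called risen in ∆set-7, the median where hH2Az was deleted was 0.11. Of the 94 genes that rose with the loss of set-7 where hH2Az was deleted, 88 were also higher where it was kept, 51 of them called, with medians of 2.10 and 2.99. Over all genes 47.5% were higher in ∆set-7 than in Wild type and 1.02% were called higher. The 26 genes that fell with the loss of set-7 where hH2Az was deleted (0.323% of all genes with set-7 counted), had a median of -0.12 where hH2Az was kept, and none of them was called there.

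**Figure D4:**
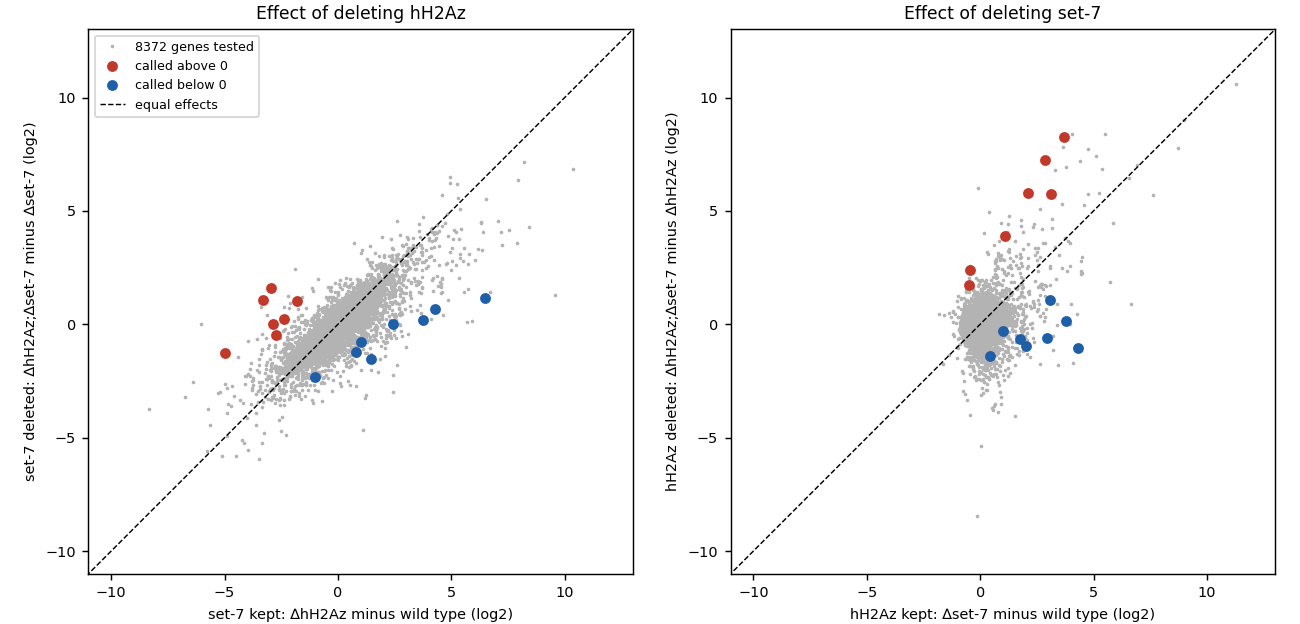
Effect of deleting hH2Az with set-7 kept (x) and deleted (y) on the left, and of deleting set-7 with hH2Az kept (x) and deleted (y) on the right, all in log2; grey points are the 8372 tested genes and the dashed line marks equal effects, which is an interaction of 0. The 7 red genes lie above the line and the 8 blue genes below it in both panels; on the left the red genes span -4.97 to -1.80 on x and -1.27 to 1.59 on y.

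The correlation across the 8372 genes was r = 0.811 between the hH2Az effects and 0.441 between the set-7 effects. Within the 920 libraries these values were 0.623 and 0.0831, and within the replicate 3 libraries 0.766 and 0.484. The points are genes of shared libraries, not replicates, and few genes changed with set-7, so these are descriptions of how the 2 effects line up.

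The interaction depended on the tag for many genes. The 8 libraries tagged 920 alone gave 2167 calls of 8414 genes tested (25.8%), 1031 above and 1136 below 0, with a common dispersion of 0.0178 against 0.102 over 12 libraries. The difference of the interaction between the tags was tested in edgeR with a coefficient for each strain and tag, which assumes that the single replicate 3 library of a strain varies like the 920 ones. It was called for 1382 of 8372 genes (16.5%), 653 higher (7.8%) and 729 lower (8.71%) in replicate 3. Of the 2162 calls of the 920 libraries among those genes, 1092 (50.5%) also had a called difference between the tags. On the log2(CPM + 0.5) scale, the 920 calls above 0 had a median of 1.01 in the 920 libraries and -0.36 in the replicate 3 libraries. The calls below 0 had -1.31 and 0.26. All 15 genes called over 12 libraries were called in the 920 libraries and kept their sign in replicate 3. On the log2(CPM + 0.5) scale, those above 0 ranged there from 1.25 to 2.82 and those below 0 from -3.72 to -0.82. That scale can give smaller values than edgeR at low counts. In the 920 libraries NCU09634 had 4.46 by edgeR but 2.60 on that scale, against 2.75 in replicate 3. The 12 libraries hold both tags, so these shared signs and calls partly follow from the choice of genes and add no support. The difference between the tags was called for 4 of the 15: NCU14124, NCU04690, NCU09306 and NCU05902.

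**Figure D5:**
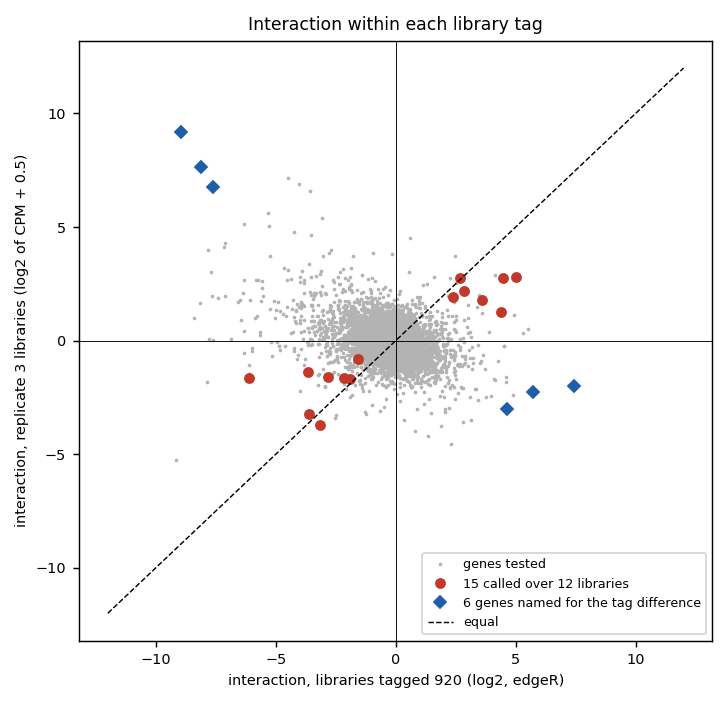
Interaction of each tested gene in the libraries tagged 920 (x, log2, edgeR) and in the replicate 3 libraries (y, log2 of CPM + 0.5); red points are the 15 genes called over 12 libraries, blue diamonds are the 6 genes with the largest called differences between the tags, and the dashed line marks equal values. The red points lie in the quadrants of equal sign and the blue diamonds in those of opposite sign. The red genes were chosen by the test over both tags and the blue genes by the difference between the tags. Their quadrants partly follow from that choice and add no support. The axes differ in scale, so distance from the dashed line also reflects the scale.

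Several genes had a large interaction in the 920 libraries with the same sign in the replicate 3 libraries and no call over 12. NCU01348, on chromosome V from 3730157 to 3732570, had 387, 448 and 239.8 CPM in Wild type, 0.956, 1.84 and 0.576 in ∆hH2Az, 412, 551 and 435 in ∆set-7 and 56.5, 44.1 and 3.75 in ∆hH2Az;∆set-7. The loss of hH2Az lowered it with and without set-7, and the double deletion lay above ∆hH2Az in every library, least so in replicate 3. The interaction was 4.95 in the 920 libraries (edgeR adjusted p 8.04e-07) and 4.57 over 12 (standard error 0.993, adjusted p 0.210 by edgeR). Its sign too depends on the scale, at -73.7 CPM (SE 76.9) without a log. NCU08756, 20.4 kb from an end of chromosome III, had 0.173 to 0.928 CPM in Wild type, 0 to 0.204 in ∆hH2Az, 5.75 to 10.7 in ∆set-7 and 27.6 to 61.8 in ∆hH2Az;∆set-7. The means had the order of strains seen at the left end of II. Here Wild type and ∆hH2Az overlapped, on 18 and 7 reads, and did not differ by the test (edgeR adjusted p 0.122). The interaction of NCU08756 over 12 libraries was 4.34 (standard error 1.06, adjusted p 0.238 by edgeR).

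In the other direction, NCU09968 on chromosome VI, which overlaps NCU09969, had 23.2 to 25.2 CPM in the ∆hH2Az libraries and 0 to 0.139 CPM in the 9 others. Its reads summed to 1 in Wild type and 3 in ∆hH2Az;∆set-7, so its fitted interaction of -8.31 depends on the prior count of the fit and is no measure of size. NCU08223 on chromosome III had 1.18 to 1.23 CPM in Wild type, 14.7 to 23.96 in ∆set-7, 3.49 and 3.98 in ∆hH2Az replicates 1 and 2 but 0.432 in replicate 3, and 0.0529 to 1.88 in ∆hH2Az;∆set-7. NCU05106 and gh7-4, which carries a glycoside hydrolase family name, lie near each other on chromosome VI, between 3725598 and 3734273. gh7-4 had 33.2 and 29.2 CPM in ∆hH2Az replicates 1 and 2, 0.624 CPM in replicate 3 and at most 1.81 CPM elsewhere. NCU05106 had at most 0.253 CPM in Wild type and 1.49 to 14.6 CPM in the mutants. None of these 4 genes was called over 12 libraries, with edgeR adjusted p from 0.145 to 0.527.

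The genes of the complexes themselves had no called interaction over 12 libraries. Of the 6 genes listed, PRC2 subunits, hH2Az and a subunit of the exchange complex that places H2A.Z, 0 were called. NCU05300, taken as eed, a PRC2 subunit, had 2.95 to 3.23 CPM in Wild type, 0.192 to 0.478 in ∆hH2Az, 2.26 to 3.16 in ∆set-7 and 0.347 to 0.634 in ∆hH2Az;∆set-7. It was low wherever hH2Az was deleted, and its interaction was 0.73 (standard error 0.533, adjusted p 0.890 by edgeR). NCU05460, taken as suz12, had an interaction of -0.02 (standard error 0.334, adjusted p 1.0 by edgeR). That of cac-3 was 0.20 (standard error 0.223, adjusted p 0.929 by edgeR). That of crf1-1, taken as the swr-1 of the labels, was 0.58 (standard error 0.473, adjusted p 0.907 by edgeR). hH2Az had 0.21 (standard error 0.386, adjusted p 0.964 by edgeR) and set-7 -0.02 (standard error 0.394, adjusted p 1.0 by edgeR). Both genes are themselves deleted in strains of this design, so their interactions rest on the reads left there and do not measure regulation. hH2Az also overlaps NCU05345 and NCU05346 by position, and the counting used no strand. In the 920 libraries alone 2 of the 6 were called above 0 (background 12.3%), hH2Az at 0.69 (edgeR adjusted p 0.0447) and swr-1 at 0.80 (edgeR adjusted p 0.0206). In replicate 3 they had -0.66 and 0.17, and the difference between the tags was called for hH2Az (edgeR adjusted p 0.0357).

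In the other groups of genes examined, 1 interaction was called over 12 libraries. Of 7 histone genes, 6 fell with the loss of hH2Az both with and without set-7 (backgrounds 14.9% and 15%), and 0 had a called interaction, with a median of -0.30. hH3, which encodes histone H3, had an hH2Az effect of -0.93 with set-7 and -1.22 without, an interaction of -0.30 (standard error 0.283, adjusted p 0.912 by edgeR). Of 7 genes of heterochromatin and DNA methylation, among them dim-5 for the histone H3 lysine 9 methyltransferase and hpo for heterochromatin protein HP1, 0 were called, with a median of -0.23. Of 7 clock and light genes 1 was called, ccg-1, with a median of 0.37. frq, the clock gene whose protein represses its own transcription, had an interaction of 0.64 (standard error 0.480, adjusted p 0.897 by edgeR). In the 920 libraries alone 3 of the 7 clock and light genes were called above 0 (frq, wc-2 and eas, background 12.3%) and ccg-1 below 0 (background 13.5%). The list medians were 0.55 in the 920 libraries and -0.28 in replicate 3. In replicate 3, frq was at 0.20, wc-2 at -0.13, eas at -2.02 and ccg-1 at -0.82. In the 920 libraries hH3v of the histone genes and dim-7 of the DNA methylation genes were also called below 0 (background 13.5%). Both were above 0 in replicate 3, at 0.45 and 0.17.

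Developmental markers were checked in the same way, with all genes at a median of 0.01. Of 5 genes of vegetative hyphae 0 were called, with a median of 0.02; of 10 tested genes of conidia and aerial hyphae 0, with a median of 0.37; and of 4 tested genes of sexual development 0, with a median of -0.40. con-13 and matA-1 did not pass the filter. In the 920 libraries alone 4 of the 10 conidial genes were called above 0 (con-6, eas, fl and csp-1, against 12.3% of all genes) and 0 below, with list medians of 0.59 in the 920 libraries and 0.16 in replicate 3; con-6, eas and fl were below 0 in replicate 3, at -2.40, -2.02 and -0.43. Of the 4 sexual genes, Asm-1 was called above 0 in the 920 libraries and asd-1 and asd-3 below 0 (backgrounds 12.3% and 13.5%). In replicate 3, Asm-1 was at -0.54, asd-1 at 0.04 and asd-3 at -0.37. eas, the hydrophobin of the conidial rodlet layer, had 38.2, 66.8 and 19.1 CPM in Wild type, 0.287, 0.511 and 0.672 in ∆hH2Az, 8.73, 8.47 and 122 in ∆set-7 and 3.82, 18.98 and 1.32 in ∆hH2Az;∆set-7. Its ∆set-7 libraries fell on both sides of Wild type, and its interaction was 3.86 (standard error 1.64, adjusted p 0.773 by edgeR). The summed markers of conidia and aerial hyphae were 655 to 735 CPM in Wild type, 566 to 1880 in ∆hH2Az, 483 to 879 in ∆set-7 and 1020 to 1620 in ∆hH2Az;∆set-7. This sum hides a split list. Against Wild type, 3 of its genes were called higher in ∆hH2Az (con-8, al-1 and al-3, background 16.2%). Called lower were 3 others (eas, fl and csp-2, background 14.9%). con-8 had means of 47.6 CPM in Wild type and 575.9 CPM in ∆hH2Az. The sums of the genes listed for vegetative hyphae were 13600 to 17900 in Wild type and 16300 to 20900 in ∆set-7. They were 9180 to 11100 in ∆hH2Az and 9380 to 13300 in the double deletion. Most of this sum was tef-1, with means of 12430 CPM in Wild type and 8018 CPM in ∆hH2Az. The means of hex-1 and act were also lower in ∆hH2Az than in Wild type. The genes so (88.3 against 61.2 CPM) and chs-1 (155 against 139 CPM) had higher means in ∆hH2Az, so the list had no common course. The part of such differences in the interactions was not tested.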

How the data were processed

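The deposited table holds whole-number read counts per gene for the 12 libraries; featureCounts 1.6.2 was run on NC12 exons, without a strand option, per the file headers. No source used here gives the RNA aligner. The deposited gene length column was used for no test. Of 10398 genes, 10397 matched the RefSeq gene table by position; 2406 overlap another gene. The filter was filterByExpr by strain, the scaling TMM and the test edgeR's 2-sided quasi-likelihood F-test (edgeR 4.0.16, R 4.3.3, limma 3.58.1, DESeq2 1.42.0), with 1 coefficient per strain, Benjamini-Hochberg adjustment over all genes tested and a threshold of 0.05. Standard errors are Wald errors of that fit. The script was tested on simulated counts. CPM uses TMM-scaled library sizes. Values within a tag use log2(CPM + 0.5). Gene lists were matched by NCU identifier where one was given and otherwise by symbol. No product names were used. Genes named are all called genes, the 6 complex genes, the 5 largest each way in the 920 libraries with the same sign in replicate 3 and a mean of at least 5 CPM, and the 3 largest each way in the difference between the tags; neighbours, genes just past the threshold and list examples were named with values in view. The names eed and suz12, and the match of swr-1 to crf1-1 (NCU09993), rest on prior knowledge. The members and lists were chosen with earlier results of these data known. Replicate numbers were checked for pairing. Alternatives were other scalings, filters, tests, blocks and subsets of libraries.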

Additional observations from a re-analysis of the deposited data

Results flagged for a closer look

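The interaction differed between the replicate 3 libraries and those tagged 920, by edgeR's test of the difference itself, for 1382 of 8372 genes. Among the 15 called genes the difference (replicate 3 minus 920, log2) was 3.35 for NCU14124 (edgeR adjusted p 0.0267), 2.11 for NCU04690 (edgeR adjusted p 0.0267), -2.49 for NCU09306 (edgeR adjusted p 0.0241) and -1.80 for NCU05902 (edgeR adjusted p 0.00920); the sign of the interaction was the same in both tags. Among genes named from the 920 libraries it was -3.14 for NCU01348 and 6.33 for NCU08223. It was -1.38 for hH2Az (edgeR adjusted p 0.0357), whose interaction was above 0 in the 920 libraries and below 0 in replicate 3. That value rests on reads left over a gene deleted in ∆hH2Az and ∆hH2Az;∆set-7. The difference was 1.65 for NCU07454 (edgeR adjusted p 0.0102), just past the threshold over 12 libraries.

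In the genes with the largest differences the sign turned. NCU14148, which overlaps NCU08130, had 3851 and 3110 CPM in ∆hH2Az replicates 1 and 2 but 1.97 in replicate 3, and 20.3 and 16.4 CPM in ∆hH2Az;∆set-7 replicates 1 and 2 but 1410 in replicate 3, a difference of 18.45. NCU05122 had 107 and 86.1 CPM, then 0.192, in ∆hH2Az and 1.09 and 0.582 CPM, then 126 in the double deletion, a difference of 17.73. NCU05788 had 370 and 213 CPM, then 1.78, and 2.55 and 1.85 CPM, then 251, a difference of 14.69. In all 3 genes replicate 3 of ∆hH2Az was low and that of the double deletion high, the reverse of replicates 1 and 2. In all 3 genes replicate 3 of ∆hH2Az also lay below replicates 1 and 2 of the double deletion, narrowly so for NCU05788 (1.78 against 2.55 and 1.85 CPM).

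Of the genes whose difference was below 0, eas had -9.16, NCU09933 -8.09 and NCU00265 -7.72. NCU00265 had 28.6, 35.7 and 244.5 CPM in ∆hH2Az replicates 1, 2 and 3 and 321, 388 and 34.2 CPM in the double deletion. NCU09968 did not share this course, at 25.2, 23.2 and 23.7 CPM in ∆hH2Az and at most 0.139 CPM in the double deletion.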

How the results depend on the processing

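The 15 calls became 70 with the DESeq2 Wald test (21 above, 49 below 0) and 2167 in the 920 libraries alone (1031 and 1136), and ranged from 14 to 18 under the other scalings and filters and with the tag as a term; limma-voom gave 12. The replicate numbers did not pair the libraries: 8 of 18 same-number pairs correlated above 0.1, and 5 libraries had their best partner within their own number. With the replicate block the calls were 11, with 5 below 0, and kept 10 of the 15; NCU09632, NCU14124, ccg-1, NCU09553 and NCU04690 were lost. Leaving out 1 library gave 5 to 116 calls, 3 to 24 above 0 and 2 to 92 below 0; it was 5 without Wild type replicate 2, 116 without ∆hH2Az replicate 3 and 106 without ∆hH2Az;∆set-7 replicate 3. Within 25 kb of an end the calls above 0 were 24 in the 920 libraries and 3 to 9 with 1 library left out, and the median interaction was 0.313 at a mean of at least 5 CPM and 0.448 to 0.708 with 1 library left out. The median set-7 effect without hH2Az, 2.28 over the genes risen in ∆set-7, was 1.752 at a mean of at least 5 CPM, 1.533 with DESeq2, 2.634 with limma-voom, 1.862 with the tag as a term, 0.107 over the genes the 920 libraries call, and 1.916 to 2.969 with 1 library left out. The hH2Az effect without set-7 was 0.684 and -0.858 over the genes the 920 libraries call risen and fallen, and 0.881 to 1.318 and -1.377 to -1.047 with 1 library left out. Signs turned in CPM without a log for NCU09306 (-23.9) and, among genes not called, NCU01348 (-73.7), hH2Az (-7.59) and NCU05460 (1.00), for set-7 in the 920 libraries (0.198) and with 1 library left out (-0.295 to 0.185, above 0 in 6 fits), and for NCU05460 with 1 library left out (-0.279 to 0.161, above 0 in 5 fits); neither set-7 nor NCU05460 was called in any of these. The cause was not tested. The count of genes whose interaction differed between the tags was 1188 to 1541 under the alternatives tried.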
